A study of Mus musculus with 12 samples.

Results

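Collagen chains, laminin chains and the proteins that join them into basement membranes were followed in the external granule layer of the mouse cerebellum, in a conditional knockout of SnoN (KO) and in wild type littermates (WT). The members were chosen by name: every protein-coding gene whose symbol is a collagen chain (Col, a number, a, a number) or a laminin chain (Lama, Lamb or Lamc with a number), with Nid1, Nid2, Hspg2, Agrn, Fn1, Sparc, Dcn and Lum. This gave 63 of the 53379 genes in the count tables. The external granule layer is the sheet under the pia in which granule neuron precursors divide. It was cut by laser from the central lobules of C57BL/6 mice at postnatal day 6, and its RNA was sequenced. SnoN, encoded by Skil, is a nuclear protein that binds SMAD proteins and represses their transcription of TGF-beta target genes. The sources used here do not give the Cre driver, the deleted exons or the cells in which the deletion takes place.

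Basement membranes are thin sheets of matrix on which the end feet of glia, the meninges and the vessels of the brain rest. Laminins, each a trimer of an alpha, a beta and a gamma chain, assemble on receptors at the cell surface, type IV collagen forms a second cross-linked network, and nidogens and the proteoglycans perlecan and agrin join the networks. Fibrillar collagens, with type VI collagen and small proteoglycans such as decorin and lumican, form the looser matrix of fibroblasts in the meninges. In the cerebellum the pial basement membrane lies directly over the external granule layer, and mouse mutants that break it have misplaced granule cells. Genes for collagen are also among the classic targets of TGF-beta signalling in fibroblasts.

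There were 6 KO and 6 WT libraries, called here by the group and number in their titles. KO4 and WT2 were marked by the submitters as outliers by robust principal component statistics, so the comparison used KO2, KO3, KO5, KO6 and KO8 against WT1, WT3, WT5, WT6 and WT7. KO2 carries a genotype tag that says wild type and was kept as KO by its title. Gene counts summed to 7520076 to 15083086 per library. Whether the libraries stand for different animals is not stated in the labels, so the p-values speak for the spread between these libraries, which may be technical in part. Levels are TMM-scaled counts per 1e+06 (CPM), and unless libraries are named, values run in the order of the 10 libraries just given. Skil was at 36.1, 36.7, 20.9, 30.1 and 29.9 CPM in the KO libraries, against 47.5, 57.8, 57.3, 38.5 and 48.5 CPM in the WT libraries, so the groups did not overlap. Its log2 fold change, KO minus WT here and throughout, was -0.70 (SE 0.15; edgeR quasi-likelihood adjusted p = 0.124). With KO4 and WT2 it was -0.96 (edgeR adjusted p = 0.9985), and with KO2 counted as WT -0.69 (edgeR adjusted p = 0.792). With GC content as an offset it was -0.93 (edgeR adjusted p = 0.00105). The counts cover the whole gene, deleted part included.

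Of the 63 members, 62 had at least 1 count in some library. Col20a1 had 0 counts in all 12, which allows up to 0.0225 CPM (3 of 133611331 counts; counting error only). Per length of exon, the level was highest for Sparc, which encodes a collagen-binding matrix glycoprotein that glia, endothelial cells and fibroblasts secrete, at 105 CPM per kb (mean of 12 libraries). Sparc alone made up 39.3% of the members' summed CPM per kb. Next came Col3a1, the type III collagen of soft connective tissue, at 41.2 CPM per kb and 15.4% of the sum. Lum and Dcn, for the small proteoglycans lumican and decorin that coat collagen fibrils, were at 13.5 and 12.3 CPM per kb. Among the basement membrane genes the order per kb was Col4a1 (9.14), Nid1 (8.3), Col18a1 (8.17), Col4a5 (5.62), Agrn (5.07), Col4a2 (2.86), Lamc1 (2.56) and Lamb1 (1.57). Col9a3 and Col9a1, chains of a type IX collagen best known from cartilage, stood among them at 12.6 and 6.88 CPM per kb. The type IV chains Col4a1 and Col4a5 were thus above Col4a2, whose protein shares a trimer with that of Col4a1.

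**Figure D1:**
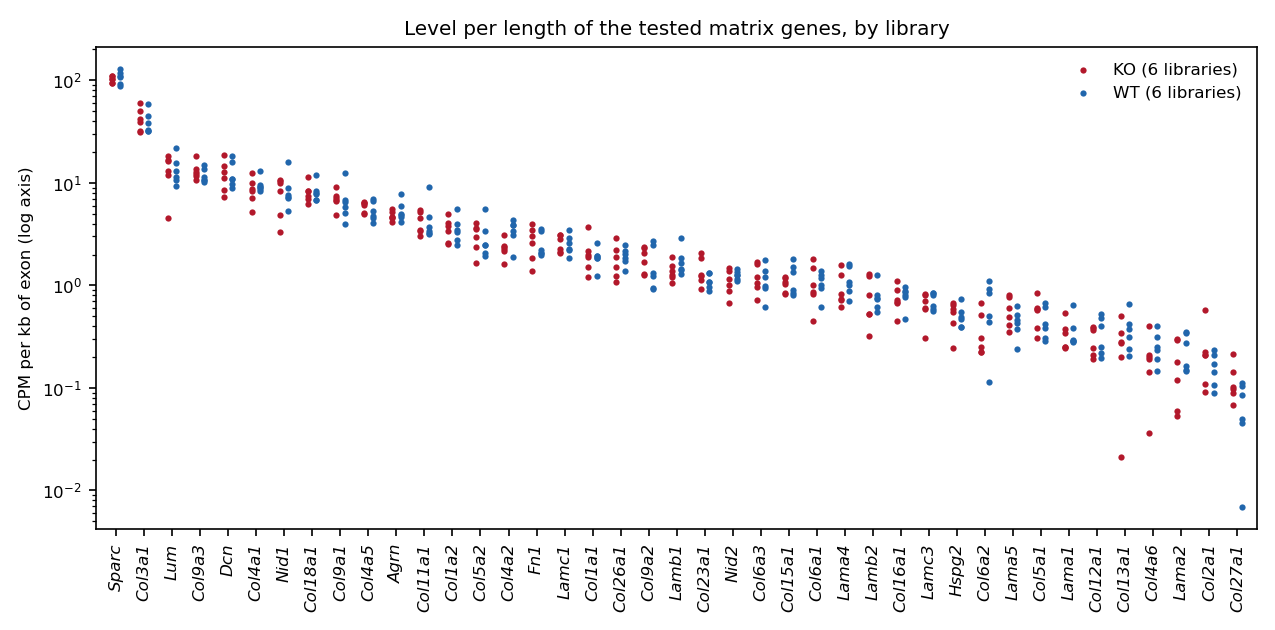
Level per length (CPM per kb of exon, log axis) of the 41 tested matrix genes in each of 12 libraries, KO points left of WT points; each point is 1 library and genes are ordered by their mean. Sparc (105 CPM per kb) and Col3a1 (41.2) stand above the rest, Lum, Col9a3, Dcn and Col4a1 follow, and KO and WT points overlap for most genes.

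Genes of other cell types were read beside these levels. Summed endothelial markers (16 genes, Cldn5 highest) came to 285 to 467 CPM in KO and 326 to 400 CPM in WT. Summed pericyte and smooth muscle markers (11 genes, Rgs5 highest) came to 174 to 265 CPM in KO and 146 to 226 CPM in WT. Meningeal fibroblast markers (14 genes) summed to 604 to 804 CPM in KO and 581 to 699 CPM in WT, mostly from Vim and Pdgfra, which glia and glial progenitors express too. Without those, 12 genes such as Slc6a13 and Foxc1 summed to 36.6 to 121 CPM in KO and 42.3 to 104 CPM in WT. None of the markers of these cell types was at 0 in all libraries. The 12 Bergmann glia and astrocyte markers summed to 975 to 1553 CPM in KO and 737 to 1189 CPM in WT. The 12 granule neuron precursor markers summed to 4866 to 8207 CPM in KO and 4233 to 6349 CPM in WT, far above the vessel and meninges lists. Much of that sum was 1 gene, Neurod1, at 2028 to 4693 CPM in KO and 1498 to 3406 CPM in WT. Microglia markers (10 genes) summed to 36.3 to 53.1 CPM in KO and 42.1 to 49.04 CPM in WT, and 5 globin and erythroid genes to 413 to 701 CPM in KO and 364 to 680 CPM in WT. Every list overlapped between the groups. In bulk tissue of this kind, fewer cells of a type and less RNA per cell cannot be told apart, for every result that follows.

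Of the 63 members, 41 passed the filter on low counts and were tested, and 0 of them reached the threshold of 0.05 on the adjusted p of edgeR's quasi-likelihood test over 13442 genes. Of all genes 3 (0.0223%) were called, 0.0149% higher and 0.00744% lower in KO. DESeq2 called 1 member, Col4a2, of the 62 with a count (1.61%), beside 470 of all 27686 genes (1.7%). It gave an adjusted p to 9973 of those genes, and none to Col6a2 (DESeq2 unadjusted p = 0.00411), Col6a1 or Lama5, which could not be called. At an unadjusted p under 0.05, Col5a2 and Lum were higher and Col4a2 and Col6a2 lower in KO, which is 4 of 41 (9.76%) against 21.8% of all genes tested (11.8% higher and 9.97% lower). That order of the shares depended on the setting. With GC content as an offset 10 of 41 members (24.4%) had such a p, beside 15.6% of all genes: Lama5, Col5a2, Col9a1, Col5a1, Col1a2, Col4a5, Col6a3 and Col23a1 were higher, Col4a2 and Col6a2 lower, and 0 passed after adjustment in edgeR. Of the fitted fold changes without the offset, 22 were above 0 and 19 below 0. The median log2 fold change of the 41 was 0.03, beside 0.001 over all genes, and the range was -0.996 to 0.67. In 1 of 41 members, Col4a2, all 5 KO libraries lay below all 5 WT libraries, a pattern seen in 1.31% of all genes tested, and in 0 did they lie above (1.04% of all; 2.35% in either direction). The members' summed CPM was 1359 to 1879 in KO and 1388 to 1991 in WT.

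**Figure D2:**
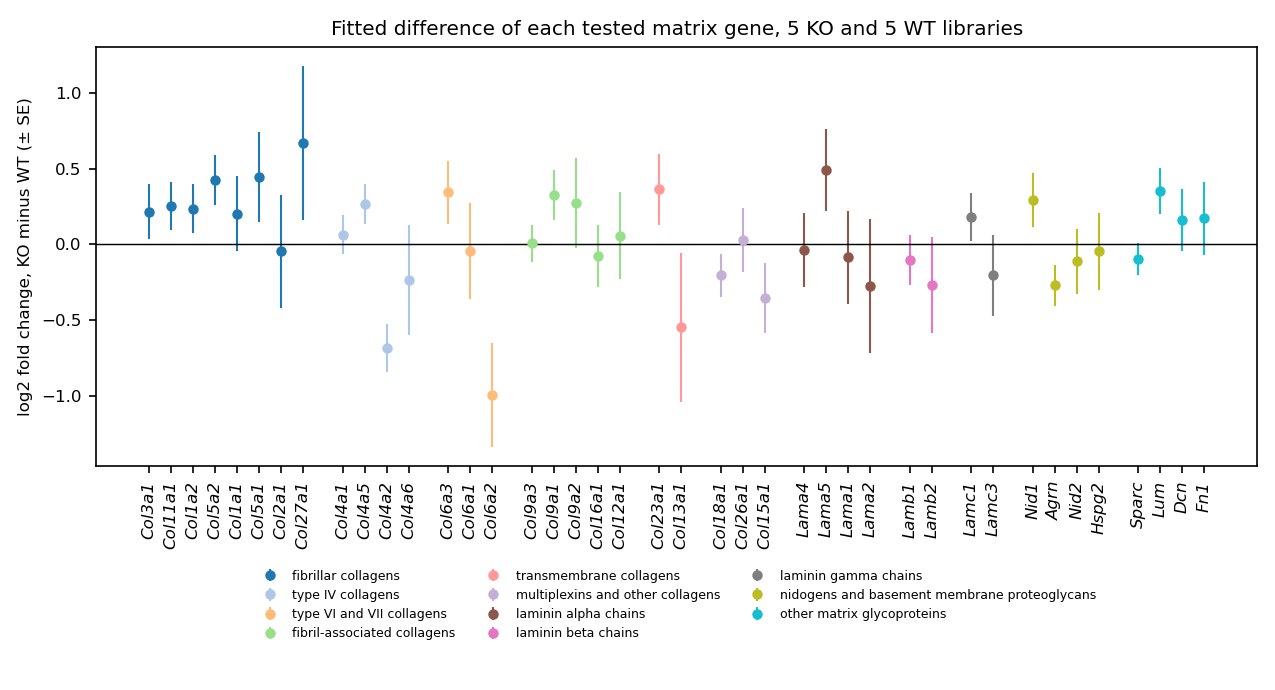
Fitted log2 fold change (KO minus WT, y axis) with its standard error for each of the 41 tested members, coloured by role, from 5 KO and 5 WT libraries. Points lie on both sides of the line at 0, with Col6a2 (-0.996) and Col4a2 (-0.69) the lowest and 7 of 8 fibrillar collagens above it.

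Type IV collagen held the member with the smallest p, Col4a2. Neither it nor its partner Col4a1 was called; Col4a2 had lower levels in the 5 KO libraries than in the 5 WT libraries, and Col4a1 fitted close to 0. Col4a1 and Col4a2, which encode the alpha1 and alpha2 chains of the trimer found in nearly every basement membrane, lie head to head on chromosome 8 of GRCm38: Col4a1 (ENSMUSG00000031502.11) at chromosome 8, 11198423 to 11312826, minus strand, Col4a2 (ENSMUSG00000031503.13) at chromosome 8, 11312805 to 11449287, plus strand. Their RefSeq starts are 21 bases apart, and the 300-base windows from 250 before to 50 after each start (RefSeq, GRCm38.p6) share 78 bases, read on opposite strands. The windows are shown because the pair shares this promoter. Capitals mark the letters GGGCGG (the GC box bound by Sp1), the letters CCAAT (bound by NF-Y) and the letters CAGAC (a core of SMAD binding elements). Each was searched on both strands, so that the first also appears as CCGCCC, the second as ATTGG and the third as GTCTG. The library kit marks no strand, so reads from the short stretch where the first exons overlap, and reads of the antisense genes Gm15418 and Gm15419, may be mixed with those of the collagen genes.
Col4a1, chr8:11312777-11313076, minus strand: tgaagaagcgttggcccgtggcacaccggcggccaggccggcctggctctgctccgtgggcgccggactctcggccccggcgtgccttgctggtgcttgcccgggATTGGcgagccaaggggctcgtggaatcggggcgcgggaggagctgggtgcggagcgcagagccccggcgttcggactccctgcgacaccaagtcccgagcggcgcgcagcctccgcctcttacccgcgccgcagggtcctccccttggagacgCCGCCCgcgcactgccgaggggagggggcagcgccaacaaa
Col4a2, chr8:11312555-11312854, plus strand: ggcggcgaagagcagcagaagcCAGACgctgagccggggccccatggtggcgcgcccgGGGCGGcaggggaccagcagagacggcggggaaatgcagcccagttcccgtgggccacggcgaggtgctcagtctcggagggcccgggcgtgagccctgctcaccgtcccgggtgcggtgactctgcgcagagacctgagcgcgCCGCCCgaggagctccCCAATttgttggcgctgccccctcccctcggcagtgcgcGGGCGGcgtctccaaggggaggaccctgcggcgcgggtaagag
The Col4a1 window held 1 GC box, 1 CCAAT box and 0 SMAD cores, and the Col4a2 window held 3 GC boxes, 1 CCAAT box and 1 SMAD core. The GC box of the Col4a1 window is also 1 of the 3 in the Col4a2 window, a single site in the 78 shared bases. The SMAD core lies outside the shared bases and inside the Col4a1 gene. The unequal counts thus depend on where the windows fall and do not set the promoters of the pair apart. Both windows held 0 copies of the TATA box, searched as TATAAA. Of 32851 promoter windows of this length, 35.7% held a GC box, 37.4% a CCAAT box, 49.6% a SMAD core and 13.6% a TATA box on either strand, so each motif is common, and a match is a description of letters only.

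Col4a2 was at 15.1, 16.1, 20.3, 14.2 and 10.7 CPM in the KO libraries, against 25.6, 25.8, 22.2, 28.7 and 20.7 CPM in the WT libraries. All KO values were below the lowest WT value of 20.7 CPM, KO5 by the least, on 138 to 228 counts per KO library and 232 to 355 per WT library. The means were 15.3 ± 3.47 CPM in KO and 24.6 ± 3.18 CPM in WT (SD, n = 5 each). The log2 fold change was -0.69 (SE 0.16), which did not pass over all genes (edgeR quasi-likelihood unadjusted p = 4.66e-04, adjusted p = 0.124). Its adjusted p was 0.0147 in DESeq2, 0.00299 with no filter on low counts, where 3.49% of genes passed, and 0.00122 without KO5, where 22.9% did; over all alternatives it ran from 0.00122 to 0.9996. Without KO2 the log2 fold change was -0.68 (edgeR adjusted p = 0.301), and with KO2 counted as WT -0.58 (edgeR adjusted p = 0.792). In the marked libraries the order was the other way round, 15.6 CPM in KO4 and 12.4 CPM in WT2, and with them the log2 fold change was -0.56 (edgeR adjusted p = 0.9985).

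Col4a1, its partner chain, was at 74.8, 92.7, 65.5, 62.6 and 52.9 CPM in the KO libraries, against 62.3, 68.6, 64.4, 67.8 and 70.6 CPM in the WT libraries. The KO values spread on both sides of the narrow WT range, and the log2 fold change was 0.06 (SE 0.13; edgeR adjusted p = 0.799); it was below 0 with library size alone (-0.02), with all 12 libraries (-0.15) and without KO3. The log2 ratio of Col4a2 to Col4a1 within a library was -2.30, -2.52, -1.68, -2.13 and -2.28 in the KO libraries, against -1.27, -1.41, -1.53, -1.24 and -1.76 in the WT libraries. It averaged -2.18 ± 0.31 in KO and -1.44 ± 0.21 in WT (SD, n = 5 each), a difference of -0.74, and only KO5 reached into the WT range. The ratio was -1.32 in KO4 and -2.95 in WT2, the opposite order, and with all 12 libraries the difference was -0.34. Because the ratio was chosen after the values had been seen, no test of it is given. Across all 12 libraries the levels of the 2 chains did not track each other (log2 CPM, Pearson r = 0.007, permutation p = 0.984; Spearman rho = 0.02, permutation p = 0.956; 3 chain pairs were examined, adjusted p = 0.984 and 0.956). Without KO4 and WT2, the 2 libraries farthest from the median of Col4a1, r was 0.15.

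Col4a5, a chain of the basement membranes of kidney, skin and smooth muscle, was at 41.1, 43.4, 34.2, 42.5 and 42.4 CPM in the KO libraries, against 35.3, 44.5, 32.1, 27 and 30.2 CPM in the WT libraries. Of the KO libraries 4 lay between 41.1 and 43.4 CPM, above 4 of 5 WT libraries, while KO5 fell inside the WT range; the log2 fold change was 0.27 (SE 0.13; edgeR unadjusted p = 0.0585, adjusted p = 0.247). Col4a6, its neighbour on the X chromosome and partner in one trimer, was at 1.13 to 3.17 CPM in KO and 1.18 to 3.18 CPM in WT. Col4a3 and Col4a4 were below the filter. Summed type IV collagen CPM was 108 to 156 in KO and 121 to 143 in WT, so the list as a whole did not separate the groups.

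**Figure D3:**
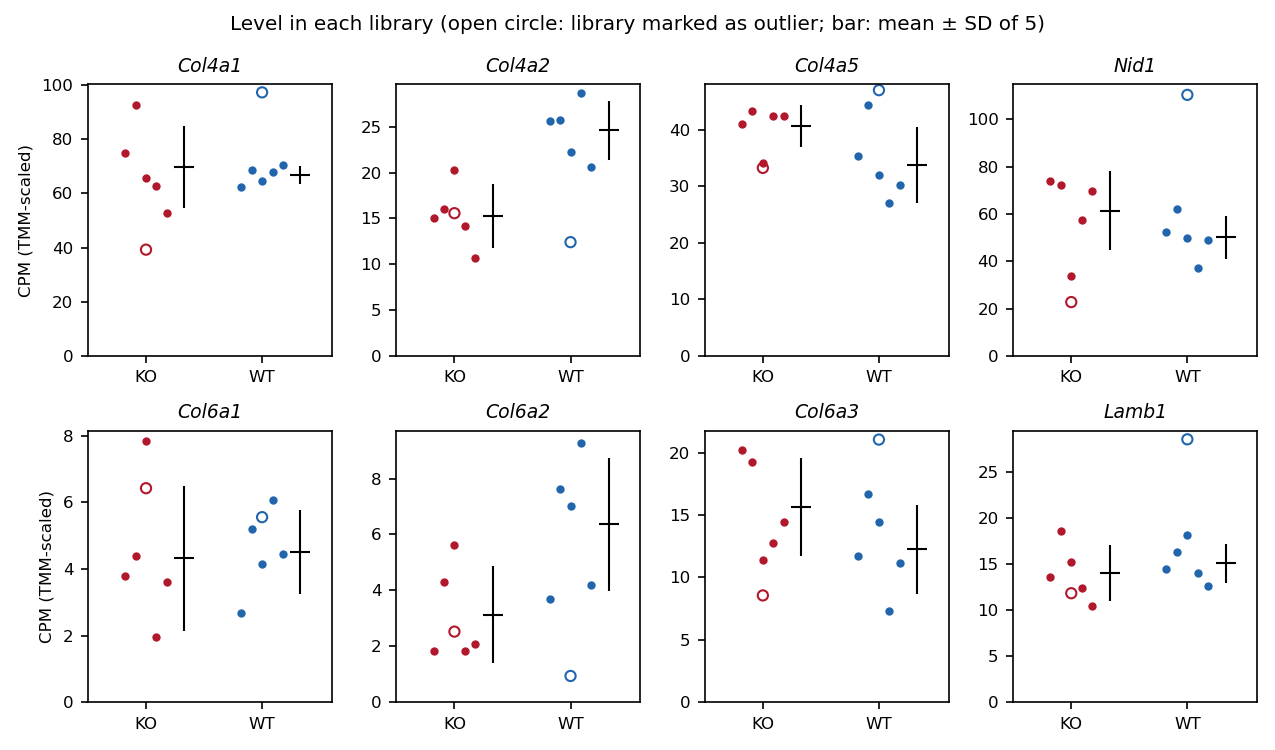
CPM (y axis, from 0) of Col4a1, Col4a2, Col4a5, Nid1, Col6a1, Col6a2, Col6a3 and Lamb1 in each library, KO left of WT; filled points are the libraries compared, open circles the marked libraries KO4 and WT2, and bars the mean ± SD of 5. The 5 filled KO points of Col4a2 lie below the 5 filled WT points. The open circles run against the fitted fold change in every panel but that of Lamb1.

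In type VI collagen, a trimer of alpha1, alpha2 and alpha3 chains that makes beaded filaments beside basement membranes, the alpha2 chain had the lowest fitted fold change of all tested members and did not pass. Col6a2 (chromosome 10, 76595762 to 76623630, minus strand) was at 1.85, 4.29, 5.62, 1.85 and 2.09 CPM in the KO libraries, against 3.69, 7.62, 7.02, 9.28 and 4.18 CPM in the WT libraries. WT libraries were higher on the whole, but KO3 and KO5 overlapped the lowest WT libraries, WT1 and WT7, and the counts were low, 18 to 63 per KO library and 51 to 79 per WT library. The log2 fold change was -0.996 (SE 0.34; edgeR unadjusted p = 0.00953, adjusted p = 0.146), with means of 3.14 ± 1.73 CPM in KO and 6.36 ± 2.37 CPM in WT (SD, n = 5 each). Its adjusted p in edgeR was 0.00639 without KO5, where 22.9% of genes passed, and 0.0154 with no filter, where 3.49% did. With KO2 counted as WT the log2 fold change was -0.68 (edgeR adjusted p = 0.792). With the marked libraries, 2.53 CPM in KO4 and 0.946 CPM in WT2, it was -0.84 (edgeR adjusted p = 0.9985).

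Col6a1 (chromosome 10, 76708792 to 76726168, minus strand), which neighbours Col6a2 and is read in the same direction, was at 3.8, 4.39, 7.84, 1.95 and 3.6 CPM in the KO libraries, against 2.67, 5.21, 4.14, 6.06 and 4.45 CPM in the WT libraries. The groups overlapped throughout, with a log2 fold change of -0.04 (SE 0.31) that changed sign in 4 of the fits that leave out 1 library and in others given with the settings. Col6a3, the longest of the chains, was at 20.2, 19.2, 11.4, 12.8 and 14.5 CPM in the KO libraries, against 11.7, 16.7, 14.5, 7.3 and 11.2 CPM in the WT libraries, a log2 fold change of 0.34 (SE 0.21; edgeR adjusted p = 0.343). The log2 ratio of Col6a2 to Col6a1 was -0.97, -0.03, -0.47, -0.07 and -0.74 in the KO libraries, against 0.44, 0.53, 0.74, 0.60 and -0.08 in the WT libraries. It averaged -0.46 ± 0.41 in KO and 0.44 ± 0.32 in WT (SD, n = 5 each); the highest KO value, -0.03 in KO3, was just above the lowest WT value, -0.08 in WT7. In KO4 it was -1.29 and in WT2 -2.35, and over all 12 libraries the difference was -0.57 in place of -0.90. No test of this ratio is given either, for the same reason. For 2 other pairs the differences were 0.08 for Col1a2 to Col1a1, chains of type I collagen, and 0.29 for Lamc1 to Lamb1. With all 12 libraries the difference was 0.35 for Lamc1 to Lamb1, in size about that of Col4a2 to Col4a1, and -0.08 for Col1a2 to Col1a1, which was also below 0 without KO3 (-0.06).

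**Figure D4:**
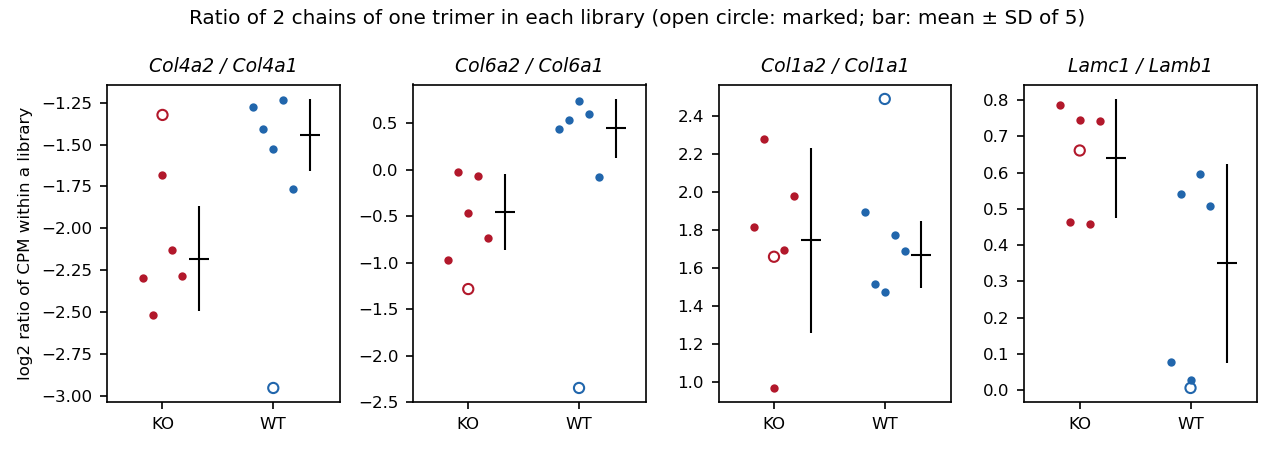
Log2 ratio of CPM of 2 chains within a library (y axis) for Col4a2 to Col4a1, Col6a2 to Col6a1, Col1a2 to Col1a1 and Lamc1 to Lamb1, KO left of WT; open circles are the marked libraries and bars the mean ± SD of 5. KO points lie mostly below WT points in the first 2 panels (differences of -0.74 and -0.90), where the open circle of WT2 is the lowest point of all.

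Fibrillar collagens, which form the banded fibrils of meninges and other connective tissue, gave 0 calls, with most fitted fold changes above 0. Of 11 genes 8 were tested and 7 fitted above 0, with a median log2 fold change of 0.24 against 0.001 over all genes. Col5a2, a chain of the type V collagen that sets fibril diameter, was at 35.1, 38.6, 34.1, 22.9 and 28.5 CPM in the KO libraries, against 18.6, 32.4, 23.9, 19.7 and 23.9 CPM in the WT libraries. Of the KO libraries 3 were above the highest WT value of 32.4 CPM, but KO6 and KO8 lay inside the WT range, and the log2 fold change was 0.43 (SE 0.17; edgeR unadjusted p = 0.0188, adjusted p = 0.165). In the marked libraries it was 15.9 CPM in KO4 and 53.3 CPM in WT2, the opposite order, and with them the log2 fold change was 0.03. Col3a1 was at 412, 498, 593, 388 and 309.9 CPM in the KO libraries, against 315, 571, 319, 376 and 316 CPM in the WT libraries (log2 fold change 0.22, SE 0.18; edgeR adjusted p = 0.495). Among these 10 libraries its highest values were in KO5 and WT3, where the 12 fibroblast markers without Vim and Pdgfra were also highest, at 121 and 104 CPM; the part of those cells in these values was not tested. Among the 5 KO libraries the order of Col3a1 was also the order of that marker sum (82.1 CPM in KO3, 58.2 in KO2, 55.3 in KO6 and 36.6 in KO8). Both patterns were broken by the marked libraries: KO4 had the lowest marker sum, 28.6 CPM, with Col3a1 at 313.8 CPM, above KO8, and WT2 had a sum of 106.4 CPM, above WT3, with Col3a1 at 439 CPM, below WT3.

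Col1a2, the alpha2 chain of type I collagen, averaged 46.8 ± 10.8 CPM in KO and 39.8 ± 7.51 CPM in WT (SD, n = 5 each), and Col11a1, a minor fibrillar chain, 55 ± 13.4 CPM in KO and 46.1 ± 7.64 CPM in WT; both overlapped between the groups (log2 fold changes 0.23 and 0.25), and both fitted below 0 with the marked libraries (-0.01 and -0.11). Across 12 libraries Col1a1 and Col1a2 had a Pearson r of 0.54 (permutation p = 0.0667, adjusted p = 0.1 over 3 pairs) and a Spearman rho of 0.55 (permutation p = 0.0707, adjusted p = 0.106), and r was 0.57 without KO5 and KO8. This was short of the threshold; after removal of the GC-content trend of every library r was 0.70 (permutation p = 0.0112), and within the 10 unmarked libraries 0.66 (permutation p = 0.0358).

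Fibril-associated and other collagens gave 0 calls. Col9a1, Col9a2 and Col9a3 encode the chains of type IX collagen, which sits on the surface of fibrils. Col9a1 was at 37.8, 46.4, 24.4, 34.2 and 36 CPM in the KO libraries, against 20.1, 32.7, 34.8, 26 and 29.4 CPM in the WT libraries (log2 fold change 0.32, SE 0.17; edgeR unadjusted p = 0.0681, adjusted p = 0.263). Of the KO libraries 3 lay above the highest WT value of 34.8 CPM, and KO5, at 24.4 CPM, had the lowest KO value. Without KO5 the adjusted p in edgeR was 0.0316, where 22.9% of genes passed. Col9a3 was nearly even at 47.1 ± 4.5 CPM in KO and 46.9 ± 7.76 CPM in WT (SD, n = 5 each), and Col9a2 averaged 5.34 ± 1.45 CPM in KO and 4.42 ± 2.29 CPM in WT. Col23a1, a membrane-spanning collagen, was at 5.32 to 11.9 CPM in KO and 5.07 to 7.65 CPM in WT, and Col13a1, another of that class found at neuromuscular junctions, at 0.0973 to 2.32 CPM in KO and 1.11 to 3.06 CPM in WT, where counts per library were few. Col18a1, the basement membrane collagen whose end fragment is endostatin, averaged 52.1 ± 6.46 CPM in KO and 60.2 ± 14.1 CPM in WT (SD, n = 5 each) with a log2 fold change of -0.21 (SE 0.14), and its relative Col15a1 averaged 6.31 ± 0.992 CPM in KO and 8.12 ± 2.73 CPM in WT (-0.35, SE 0.23). Col26a1 was even at 16 ± 5.27 CPM in KO and 15.7 ± 3.42 CPM in WT.

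Laminin chains were tested for 4 alpha, 2 beta and 2 gamma genes, and 0 passed. Lamb1 (ENSMUSG00000002900.16; chromosome 12, 31265234 to 31329644, plus strand), the beta1 chain of most brain laminins, was at 13.6, 18.6, 15.2, 12.4 and 10.5 CPM in the KO libraries, against 14.4, 16.3, 18.2, 14.1 and 12.7 CPM in the WT libraries. The groups overlapped, with a log2 fold change of -0.10 (SE 0.17; edgeR adjusted p = 0.736). Lamc1, the gamma1 chain that pairs with it, was at 23.6, 25.7, 25.7, 17.2 and 17.7 CPM in the KO libraries, against 15.2, 23.8, 18.5, 21.4 and 18.1 CPM in the WT libraries and overlapped too (0.18, SE 0.16; edgeR adjusted p = 0.512). The 2 chains moved together across 12 libraries, with r = 0.67 (permutation p = 0.0121, adjusted p = 0.0363) and rho = 0.66 (permutation p = 0.0219, adjusted p = 0.0657). Without KO8 and WT2, which had the lowest and highest Lamb1, r was 0.45 (permutation p = 0.191). Without KO8 alone r was 0.64 (permutation p = 0.026) and without WT2 alone 0.50 (permutation p = 0.118), so passing the threshold rested on WT2. In the 10 unmarked libraries r was 0.49 (permutation p = 0.153) and rho 0.64 (permutation p = 0.0541). Over all 12, r was 0.78 with each genotype centred on its mean (permutation p = 0.00186) and 0.76 after the GC-content trend was taken out (permutation p = 0.00302).

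Of the alpha chains, Lama4, which marks vessel basement membranes, averaged 12.4 ± 4.64 CPM in KO and 12.7 ± 4.06 CPM in WT (SD, n = 5 each). Lama5, the broadly used alpha5 chain, was at 3.99, 9.24, 8.82, 5.55 and 4.68 CPM in the KO libraries, against 2.75, 4.92, 4.32, 5.2 and 5.82 CPM in the WT libraries; KO3 and KO5 were highest and the log2 fold change was 0.49 (SE 0.27; edgeR unadjusted p = 0.0861, adjusted p = 0.293). Lama1 and Lama2, the chains of the pial surface and of astrocyte end feet and pericytes, averaged 3.38 ± 1.14 CPM in KO and 3.63 ± 1.49 CPM in WT, and 2.89 ± 1.96 CPM in KO and 3.51 ± 1.45 CPM in WT. Loss of Lama1 in mice disturbs the pial surface of the cerebellum, but here its groups overlapped throughout. Lamb2 averaged 4.22 ± 2.29 CPM in KO and 5.08 ± 1.48 CPM in WT (SD, n = 5 each), and Lamc3, which works at the pial surface of the mouse cortex, 3.95 ± 1.29 CPM in KO and 4.52 ± 0.738 CPM in WT. The log2 fold changes of Lama1, Lama2, Lama4, Lamb2 and Lamc3 were -0.27 to -0.04, smaller than their standard errors, and their signs changed under some settings.

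Among the linkers, Nid1 encodes nidogen-1, which ties laminin to type IV collagen. Nid1 was at 74, 72.5, 33.9, 57.6 and 69.6 CPM in the KO libraries, against 52.5, 62.3, 50, 37 and 49.2 CPM in the WT libraries. Of the KO libraries 3 lay above every WT library and KO5 below every one. The log2 fold change was 0.29 (SE 0.18, edgeR adjusted p = 0.35). Without KO5 the adjusted p in edgeR was 0.0123, where 22.9% of genes passed. The marked libraries ran the other way, 22.8 CPM in KO4 and 110.4 CPM in WT2, and with them the log2 fold change was -0.13. Nid2 averaged 5.89 ± 1.64 CPM in KO and 6.38 ± 0.525 CPM in WT. Agrn, the heparan sulphate proteoglycan agrin of the pial and vessel basement membrane, was at 48, 42, 43.3, 42.8 and 38.9 CPM in the KO libraries, against 45.8, 54.9, 42.6, 72.1 and 44.8 CPM in the WT libraries; its log2 fold change was -0.27 (SE 0.14; edgeR unadjusted p = 0.0611, adjusted p = 0.252), and WT6 was the highest library of all. Hspg2, for perlecan, was at 3.53 to 9.18 CPM in KO and 5.58 to 10.6 CPM in WT.

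Sparc was at 388, 388, 418, 419 and 356 CPM in the KO libraries, against 422, 489.6, 446, 413 and 335 CPM in the WT libraries, even between the groups (log2 fold change -0.10, SE 0.11; edgeR adjusted p = 0.614). Lum was at 41.1, 44.7, 40.3, 32 and 29 CPM in the KO libraries, against 27.8, 37.9, 22.7, 25.9 and 31.9 CPM in the WT libraries. KO2, KO3 and KO5 were above every WT library and KO6 and KO8 inside the WT range; the log2 fold change was 0.35 (SE 0.15; edgeR unadjusted p = 0.0312, adjusted p = 0.192). With the GC offset it was 0.17 (edgeR unadjusted p = 0.257), and the marked libraries, 11 CPM in KO4 and 53.5 CPM in WT2, ran the other way. Dcn was at 74.3, 84.9, 108, 65.1 and 49.8 CPM in the KO libraries, against 63.9, 106, 63.2, 52.1 and 56.7 CPM in the WT libraries, again highest in KO5 and WT3, with a log2 fold change of 0.16 (SE 0.20). Fn1, for fibronectin, was at 16.2 to 46.4 CPM in KO and 23.3 to 39.7 CPM in WT.

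**Figure D5:**
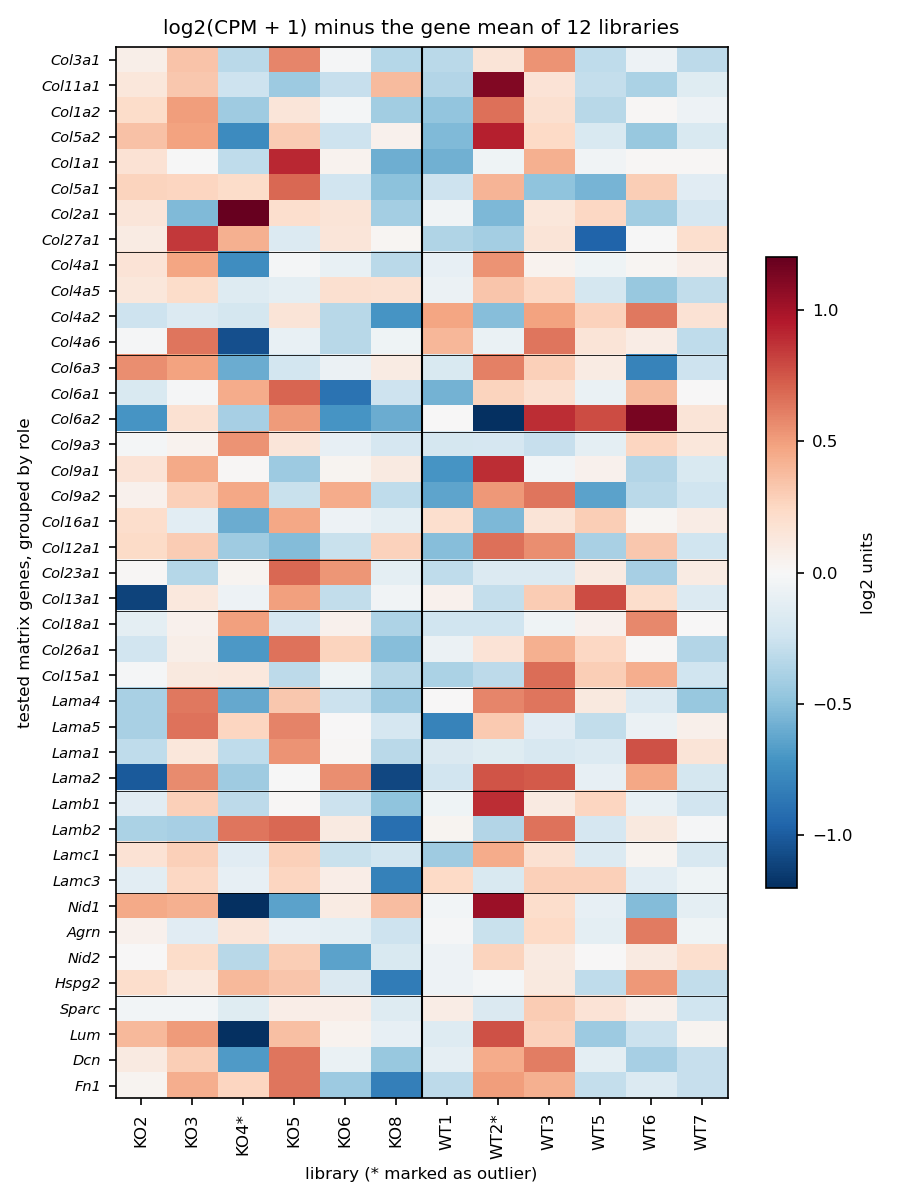
Each tested member (rows, by role) in each of 12 libraries (columns, KO left of WT, * for the marked libraries), as log2(CPM + 1) minus the gene's mean over the 12; red is above and blue below that mean, and values past the ends of the scale take the end colours. WT2 is red and KO4 blue for Col5a2, Col1a2, Col4a1, Nid1 and Lum, KO8 is blue for several laminin chains, and KO5 and WT3 are red for Dcn, Lama4 and Lamb2.

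Single libraries moved many members at once, as the map of all tested members shows. In the pair of marked libraries the difference KO4 minus WT2 had the opposite sign to the fitted fold change in 31 of 41 tested members, and WT2 was higher in 26. The same shares over all genes tested were not counted, so these counts cannot show a trait particular to the members. The Bergmann glia and astrocyte marker sum was 1021 CPM in KO4 and 2413 CPM in WT2, the highest of all libraries. Much of that gap was 1 gene, Fabp7, at 501.3 CPM in KO4 and 1519 CPM in WT2. The markers Gdf10, Hopx, Gfap, Aldh1l1, S100b and Aldoc went the other way, higher in KO4 than in WT2. The part of glia in the members' values was not tested. Leaving out KO5 changed the calls most: Col4a2 and Col6a2 were then lower and Col9a1 and Nid1 higher in KO at an adjusted p under 0.05 in edgeR, where 3102 of 13562 genes (22.9%) passed, beside 4 of 41 members (9.76%).

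The 22 members below the filter had mean levels of at most 1.09 CPM, and 3 of them had a count in every library. Among them were all 3 genes of types VIII and X, the type IV genes Col4a3 and Col4a4, and 4 genes of types VI and VII. The collagens below the filter also included 3 fibrillar, 4 fibril-associated and 2 membrane-spanning collagens and Col28a1. The layer held counts for the widespread chains of types IV and VI and of laminin, and few for Col4a3 and Col4a4.

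Genes that make, bind and cut these proteins were read from 3 lists. Of 32 genes for collagen synthesis and cross-linking 26 were tested, 0 passed, and 8 had an unadjusted p under 0.05, 4 in each direction (30.8%, beside 21.8% of all genes). Colgalt1, which adds galactose to collagen, was at 50, 45, 59.6, 64.5 and 45.8 CPM in the KO libraries, against 71.6, 62.4, 69.5, 86.4 and 65.3 CPM in the WT libraries, with only KO6 reaching the WT range (-0.42, SE 0.12; edgeR unadjusted p = 0.00333, adjusted p = 0.131); DESeq2 called it. Plod2, a lysyl hydroxylase that sets the type of cross-link, averaged 55.8 ± 8.08 CPM in KO and 42.7 ± 3.71 CPM in WT (SD, n = 5 each) (0.39, SE 0.12; edgeR adjusted p = 0.131). Serpinh1, the collagen chaperone HSP47, averaged 219 ± 37.2 CPM in KO and 269 ± 29.8 CPM in WT (-0.30, SE 0.12; edgeR adjusted p = 0.171). Of the 26, 1 gene lay higher in all 5 KO libraries than in all 5 WT libraries and 1 lower. Over all genes tested those patterns were seen in 1.04% and 1.31%. The higher was Mia3, a loader of collagen into secretory vesicles (54.0 to 63.7 CPM in KO, 46.2 to 52.2 CPM in WT). The lower was Bmp1, the procollagen C-proteinase (21.3 to 28.4 CPM in KO, 28.7 to 35.6 CPM in WT). This pair was chosen after their values were seen, and neither passed. Both directions were thus found within the list.

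Of 35 receptor and dystroglycan glycosylation genes 29 were tested, 0 passed, and 2 were higher and 3 lower at that unadjusted level (17.2%). Lims1, an adaptor of integrin adhesions, averaged 264 ± 31.3 CPM in KO and 213 ± 22.3 CPM in WT (SD, n = 5 each) (0.31, SE 0.11; edgeR adjusted p = 0.145). Ddr1, a receptor kinase for collagen, averaged 73.3 ± 17.5 CPM in KO and 94 ± 8.84 CPM in WT (-0.36, SE 0.14), and Itga6, a laminin-binding integrin chain, 16.1 ± 2.47 CPM in KO and 12.4 ± 2.08 CPM in WT (0.38, SE 0.16). Of 23 matrix protease and inhibitor genes 21 were tested, 0 passed, and 2 were higher and 0 lower (9.52%). Adam10, a membrane sheddase, averaged 411 ± 121 CPM in KO and 281 ± 49.3 CPM in WT (SD, n = 5 each) (0.55, SE 0.19; edgeR adjusted p = 0.146), Adamts5, a proteoglycan-cutting protease, 5.45 ± 0.747 CPM in KO and 3.27 ± 1.42 CPM in WT (0.73, SE 0.28), and Plat, the tissue plasminogen activator, 22.9 ± 4.52 CPM in KO and 18.6 ± 3.07 CPM in WT (0.30, SE 0.16). With the GC offset the log2 fold change was 0.08 for Lims1, -0.18 for Ddr1, 0.34 for Adam10, 0.21 for Plod2 and -0.14 for Serpinh1. With all 12 libraries it was 0.13 for Lims1, -0.09 for Ddr1, 0.14 for Adamts5, 0.22 for Adam10, 0.09 for Plat, 0.21 for Itga6, 0.19 for Plod2 and -0.15 for Serpinh1, so these sizes depended on the setting. The median log2 fold changes were -0.08 for synthesis, -0.01 for receptors and 0.17 for proteases.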

How the data were processed

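Each deposited table held whole-number read counts per gene for 1 library, made by the authors and not normalized. The submitters' processing notes name cutadapt 1.16, STAR 2.5.3a, HTSeq 0.6.1, DESeq2 and build mm10 (GRCm38); settings, including how strand was counted, are not given there. Total counts were 7520076 to 15083086 per library, with 64.4% to 67.6% of records placed at several sites, and 10.8% to 14.7% in no gene and 6.81% to 8.13% ambiguous. Genes with near copies or overlaps are uncertain for that reason: of the 41 tested members 16 overlap a gene on the opposite strand and 13 one on the same strand. Symbols, positions and exon lengths came from GENCODE M21 (53274 of 53379 identifiers matched), and promoter windows from RefSeq (GRCm38.p6; 44 members have an entry).

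Groups came from the titles. Within a group every pair of libraries differed beyond sampling noise (chi-square over its degrees of freedom 6.51 to 94.1). The filterByExpr rule (minimum count 10) kept 13442 genes, which were scaled with TMM and compared, 5 KO against 5 WT, by edgeR's quasi-likelihood test (edgeR 4.0.16, limma 3.58.1, R 4.3.3), with Benjamini-Hochberg adjustment over all genes and a threshold of 0.05. CPM uses the filter and factors of all 12 libraries. Correlations used log2 CPM (prior count 2) and two-sided permutation tests with 100000 resamples. The procedure was tested on simulated counts with 200 genes changed. The alternatives were DESeq2 1.42.0, RLE factors, library size alone, other filters, all 12 libraries, KO2 counted as WT, a replicate block, a GC-content offset (spline with 5 degrees of freedom) and each library left out in turn. Ratios of chains and a GC offset with each library left out were added after seeing the data.

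The genes named were Skil, Col4a1, Col4a2 and Lamb1, in each role the up to 3 tested members highest per kb and the up to 2 with the smallest p, and in each pathway list the 3 with the smallest p; other members are given by their ranges, and some are not reported here. The members and lists were chosen with earlier results of these data known.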

Additional observations from a re-analysis of the deposited data

Results flagged for a closer look

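Among 84 groups of 5 values (42 genes, KO and WT apart), 6 had a library far from the other 4, with a gap over 0.71 of the whole range; chance gives about 1 in 20 such groups. Col4a5 was at 34.2 CPM in KO5, against 41.1 to 43.4 CPM in the other KO libraries. WT3 was far above the other WT libraries for 4 genes. Col3a1 was at 570.8 CPM there, against 315 to 376.5 CPM in the others. Dcn was at 105.7 CPM, against 52.1 to 63.9 CPM. Col9a2 was at 8.39 CPM, against 2.88 to 4.12 CPM. Lims1 was at 252.8 CPM, against 199.6 to 206.2 CPM. The last was Serpinh1, at 321.4 CPM in WT6, against 248.2 to 263.5 CPM in the other WT libraries.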

How the results depend on the processing

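Most counts, correlations and fitted fold changes of the named genes kept their direction and their side of the threshold; those that did not follow, and their cause was not tested. Same-numbered KO and WT libraries had correlations of 0.111, -0.047 and 0.0936, inside the range of the other KO and WT pairs (-0.236 to 0.283). With so few pairs, these values cannot decide whether equal numbers pair the libraries. Only the numbers 3, 5 and 6 occur in both groups of the 10 libraries. A block fit therefore takes its genotype difference from KO3, KO5, KO6, WT3, WT5 and WT6 alone. With the replicate block 0 members were called, and at an unadjusted p below 0.05 1 was higher (2.44%, beside 2.46% of all genes) and 3 lower (7.32%, beside 2.05%). Lama4 (0.036), Lama1 (0.14), Lama2 (0.0065) and Lamc3 (0.053) changed sign. With block and GC offset 2 members were higher (4.88%, beside 2.31% of all genes) and 2 lower (4.88%, beside 1.9%) at that p. Lama4 (0.059), Lama1 (0.22), Lamb2 (0.072) and Lamc3 (0.18) changed sign.

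DESeq2 called 1 member in either direction (1.61%, beside 1.7% of all genes). That member was lower, and 228 of 27686 genes were called lower. It also called 1 synthesis gene, and gave an adjusted p to 9973 of 27686 genes. With no filter 2 of 62 members were called in either direction (3.23%, beside 3.49% of all genes). These 2 were lower, and 331 of 27688 genes were called lower. At that unadjusted p 8 members were higher (12.9%, beside 9.2%) and 6 lower (9.68%, beside 7.54%), and 1 synthesis and 1 protease gene were called. With library size alone, which moved the median of all genes to -0.08, 0 were higher at that p (6.58% of all genes), Col4a1 (-0.022), Col9a3 (-0.077) and Col26a1 (-0.036) changed sign, and r of Col1a1 and Col1a2 was 0.57. RLE factors turned r of Col4a1 and Col4a2 to -0.0024, and centring within genotype to -0.23.

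With all 12 libraries 0 members were higher (1.92% of all genes) and 1 lower (2.44%, beside 1.55%) at that p, and Col4a1 (-0.15), Col11a1 (-0.11), Col1a2 (-0.0086), Col6a1 (0.0081), Col26a1 (-0.099), Nid1 (-0.13), Lum (-0.0092) and Dcn (-0.038) changed sign. The difference in the Col4a2 to Col4a1 ratio was then -0.34, and -0.34 with the GC trend removed as well. With KO2 counted as WT, 1 member was higher and 1 lower at that p (2.38% each, beside 2.31% and 3.2% of all genes), and Col6a1 (0.034), Lama4 (0.13), Lama1 (0.089) and Lama2 (0.13) changed sign.

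With the GC offset 8 members were higher at that p (19.5%, beside 7.98% of all genes), more than the all-gene share, the other way from the fit without it, and Col6a1 (0.11), Lama1 (0.038), Nid2 (0.031), Sparc (0.0024) and Dcn (-0.068) changed sign. With 1 library also left out in turn, the members' share in either direction exceeded that of all genes in 8 fits and was below it in 2. With GC offset and all 12 libraries 0 were higher (2.39% of all genes) and 1 lower (2.44%, beside 1.82%), and Col4a1 (-0.11), Col11a1 (-0.11), Col6a1 (0.030), Col18a1 (0.031), Col26a1 (-0.064), Lamb2 (0.019), Nid1 (-0.10), Lum (-0.057) and Dcn (-0.088) changed sign. With the GC trend removed r of Col1a1 and Col1a2 was 0.70. In the 10 unmarked libraries r was 0.66 for that pair and 0.49 for Lamb1 and Lamc1, which had 0.45 without the 2 farthest libraries.

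With 1 library left out in turn, 0 to 2 members were called higher and 0 to 2 lower, and 0 to 9 were higher and 2 to 4 lower at that p. The called members came from the fit without KO5, where 22.9% of all genes were called. The 9 higher members (21.4%, beside 13.4% of all genes) came without WT3 and the 4 lower (9.52%, beside 7.52%) without WT1; the members' share in either direction exceeded that of all genes in 2 of these 10 fits. From 0 to 5 synthesis, 0 to 5 receptor and 0 to 1 protease genes were called, of 26, 29 and 21 tested with all 10 libraries. Of all genes 22.9% were called without KO5 and at most 0.0441% in each other fit of this kind. Log2 fold changes ran from -0.061 to 0.15 for Col4a1, -0.37 to 0.13 for Col6a1, -0.050 to 0.086 for Col9a3, -0.16 to 0.16 for Col26a1, -0.25 to 0.16 for Lama4, -0.29 to 0.17 for Lama1 and -0.22 to 0.023 for Nid2. r ran from -0.19 to 0.25 for Col4a1 and Col4a2, 0.44 to 0.68 for Col1a1 and Col1a2, and 0.50 to 0.74 for Lamb1 and Lamc1. Of the 42 genes named, 13 kept their sign but were smaller by over 1.5 times with the GC offset and 18 with all 12 libraries. Depth limits the low members, such as Col6a2 with 18 to 63 counts per KO library and 51 to 79 per WT library.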
